A study of Oryza sativa with 16 samples.

Results

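The comparison described here sets rice (Oryza sativa) d1 meristems against wild type (WT) meristems at the stage labelled 2. All 34302 rows of the authors' expression table were read, and 19757 genes were kept because 2 or more of its 8 columns reached 1 FPKM. FPKM is the number of sequenced fragments per kilobase of transcript, scaled to the size of the library. At the edge of that rule, 249 rows had a second highest value from 1 to under 1.1 FPKM and were kept, and 263 rows had one from 0.9 to under 1 and were not. The difference is log2(FPKM + 1) in d1 minus the same in WT, so it understates the change of genes with low values.

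The stage 2 groups were WT and d1-1, a mutant allele of RGA1, which codes for the alpha subunit of the heterotrimeric G protein. Tissue was the shoot apical meristem, freed from the leaf sheath of plants aged 3 months that had grown in a greenhouse for 100 days. The labels place all libraries at panicle initiation and do not say what the stage numbers 1, 2, 4 and 7 mean, nor the cultivar of either genotype. Each group had 2 libraries, so 4 of the 16 libraries are of stage 2. The authors deposited 1 combined value per gene and group. The values below therefore carry no SD or n, and no test between d1 and WT can be made within a stage.

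The heterotrimeric G protein relays signals from the cell surface. Its alpha subunit binds GTP, and the beta and gamma subunits form a dimer that also signals. In rice, loss of the alpha subunit gives dwarf plants with broad leaves and short, round grains, and the protein has been tied to responses to light, drought, cold and pathogens. The shoot apical meristem holds the dividing cells of the stem tip. At panicle initiation it stops making leaves and starts the branches that will carry the flowers.

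The labels were first set against marker genes. Gene names are given where an identifier known from general knowledge had its name, in the RefSeq gene table of assembly ASM3414082v1, at the matching place on the same chromosome, because no table used here pairs the identifiers with names directly. RGA1 (OS05G0333200) read 27.49, 29.60, 30.25 and 29.77 FPKM at stages 1, 2, 4 and 7 of WT and 21.97, 20.89, 23.56 and 24.08 FPKM in the same order of d1. The d1 value was below the WT value at each stage, and the stage 2 difference was -0.48. What the transcript of the d1-1 allele can still code for was not analysed here. OSH1, a homeobox gene that keeps meristem cells undifferentiated, had 467.68 FPKM in WT against 441.42 in d1 at stage 2. Its relative OSH15 had 226.93 and 203.15 FPKM. The floral organ genes MADS3 and MADS8 were at or below 0.04 FPKM in both stage 2 columns, while their summed value at stage 7 was 31.0 FPKM in WT against 45 in d1. Of the 3 anther markers, EAT1 and TDR were at or below 0.09 FPKM at stage 2, and UDT1 had 2.64 FPKM in WT against 2.61 in d1. The 5 photosynthesis genes that could be checked summed to 31.3 FPKM in WT against 13.1 in d1 at stage 2. The 23 further leaf identifiers whose names could not be looked up summed to 314 and 256 FPKM. The other shoot meristem markers were higher in d1 at stage 2. OSH71 had 69.17 FPKM in WT against 87.45 in d1, LAX1 had 113.63 and 194.28, and TAW1 had 34.38 and 44.11. FZP was near the floor, with 0 and 0.05 FPKM. Meristem markers other than FZP were thus high in both stage 2 columns, and leaf genes were also present in both.

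At stage 2, 338 genes were higher in d1 by at least 1 on the log2 scale, which is 1.71% of the genes kept, and 216 genes were lower by at least 1, which is 1.09%. At least 2 was reached by 58 genes above and 26 below, and at least 3 by 19 and 4. The median difference over all genes was 0.01. Within 0.05 of the threshold, 60 genes lay just past it and 86 just short of it, in either direction. The counts depend on how low values are treated: they were 122 and 93 among genes whose mean reached 5 FPKM, and 730 and 471 with a pseudocount of 0.1.

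**Figure D1:**
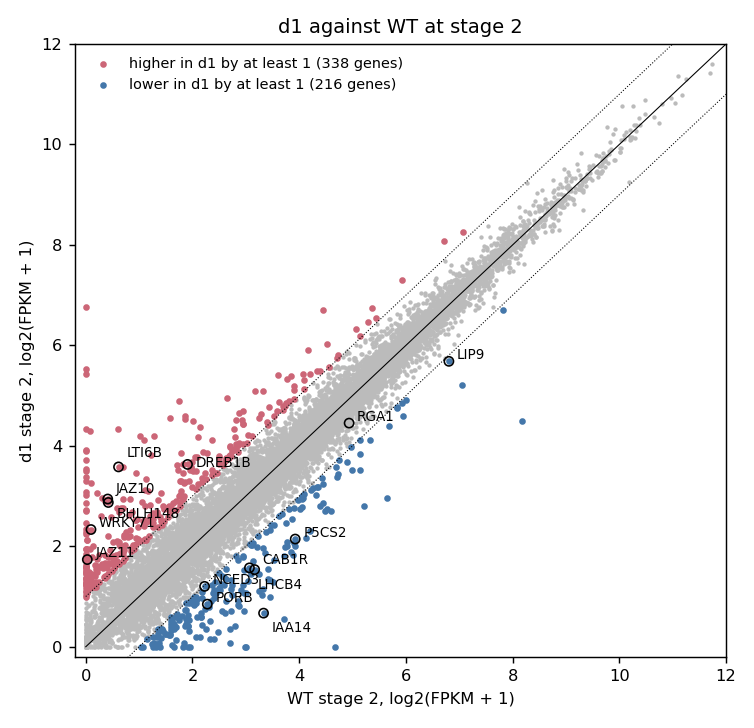
Each point is a gene kept, with log2(FPKM + 1) in WT at stage 2 on the x axis and in d1 at stage 2 on the y axis. Dotted lines mark a difference of 1, coloured points are the 338 genes above and 216 genes below, and open circles mark the named genes past 1 and RGA1. Most coloured points lie at low values on at least 1 axis.

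Genes past the threshold were mostly of low abundance. The median of the mean FPKM over the 8 columns was 3.15 for the higher genes and 3.87 for the lower genes, against 11.6 for all genes kept. Of the 338 higher genes, 41 were listed at 0 in WT at stage 2, and of the 216 lower genes, 12 were listed at 0 in d1. Identifiers that do not end in 00 made up 41.7% of the higher and 29.6% of the lower genes, against 13.3% of all genes kept. Without such identifiers, and without rows that join several identifiers, 197 genes were higher and 152 lower. The sources used here do not say whether reads kept their strand, so genes that overlap cannot be told apart.

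The stage with the most genes past the threshold was stage 2, with 554 in all. Stage 1 had 301 higher (1.52%) and 90 lower (0.456%), stage 4 had 142 higher (0.719%) and 189 lower (0.957%), and stage 7 had 117 higher (0.592%) and 303 lower (1.53%). Higher genes made up 77.0% of those past 1 at stage 1 and 61.0% at stage 2, and 42.9% and 27.9% at stages 4 and 7. The SD of the difference across genes was 0.396 at stage 2 and 0.336 to 0.366 at the other stages.

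A narrower count takes genes whose stage 2 difference lay outside those of the 3 other stages by at least 1. It found 141 genes above (0.714%) and 138 below (0.698%), 279 in all. The same count gave 126 genes for stage 1, 52 for stage 4 and 167 for stage 7.

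**Figure D2:**
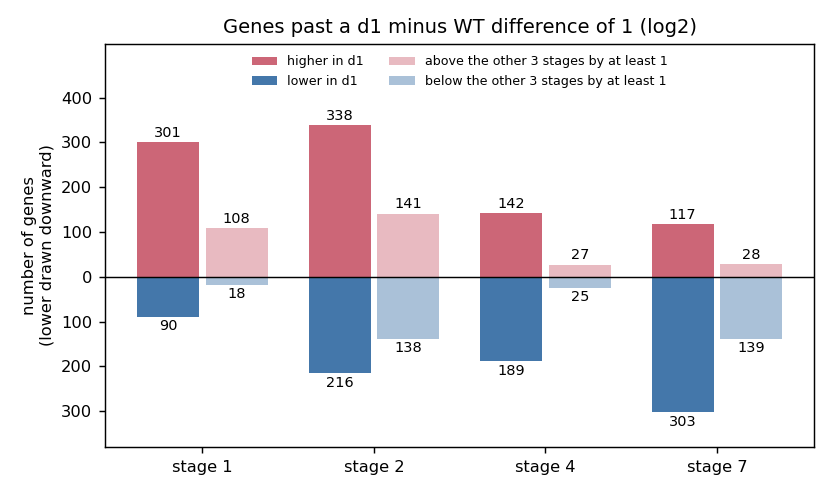
Number of genes (y axis, lower genes drawn downward) at each stage (x axis). Dark bars count genes with a d1 minus WT difference of at least 1 in size, and pale bars count genes whose difference lay outside those of the other 3 stages by at least 1; stage 2 has 338 and 216 in dark bars and 141 and 138 in pale bars.

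The difference at stage 2 was also set against the mean of those at stages 1, 4 and 7 in a limma fit across all genes kept. Its spread is that of the d1 minus WT difference between the 3 other stages, not between plants. At a Benjamini-Hochberg adjusted p under 0.05, limma called 0 genes (0.0%), and its smallest adjusted p was 0.23. At an unadjusted p under 0.05 it had 1658 genes, which is 8.39%. No gene below can therefore be called particular to stage 2 by a test, and the values are given as a description. The fit called 24 genes higher and 2 lower when low genes were not filtered out, and 1 gene lower without stage 7.

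Some of the genes past 1 at stage 2 were also past 1 at another stage, and the shares below can be read against the percentages of all genes given above for each stage. Of the 338 higher genes, 57 were also higher at stage 1 (17% of the stage 2 genes and 18.9% of the stage 1 genes), 24 at stage 4 (7.10% and 17%) and 26 at stage 7 (7.69% and 22.2%). Of the 216 lower genes, 28 were also lower at stage 1 (13% and 31.1%), 31 at stage 4 (14.4% and 16.4%) and 28 at stage 7 (13% and 9.24%). In the opposite direction, 61 genes higher at stage 2 were lower at stage 7 (18% and 20.1%), 28 at stage 4 (8.28% and 14.8%) and 10 at stage 1 (2.96% and 11.1%). Of the genes lower at stage 2, 40 were higher at stage 1 (18.5% and 13.3%), 25 at stage 4 (11.6% and 17.6%) and 3 at stage 7 (1.39% and 2.56%). At stage 4, opposite directions were thus about as common as shared ones. No other stage had a difference of 1 in either direction for 194 of the higher and 114 of the lower genes. The genes past 1 with an unchanged sign in each of the 4 stages numbered 7 above and 11 below, of which 4 and 4 lie on chromosome 5, the chromosome of RGA1, which holds 8.32% of all genes kept.

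Across the 19757 genes, the stage 2 difference correlated with that at stage 1 with Pearson's r of 0.306 and Spearman's rho of 0.444. With stage 4 these were 0.171 and 0.303, and with stage 7 they were 0.00606 and 0.0589. The stage 4 and stage 7 differences correlated with each other at 0.507 and 0.494. These differences share no column, but genes are not independent replicates, so no p is given.

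**Figure D3:**
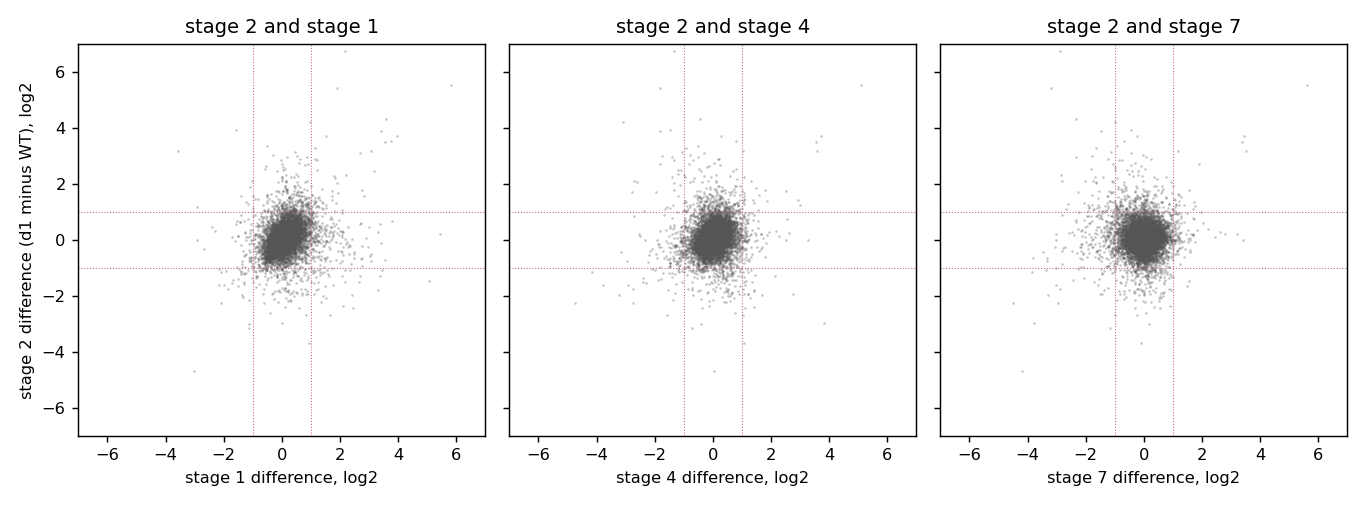
Each point is a gene kept; the y axis is the d1 minus WT difference at stage 2 and the x axes are those at stages 1, 4 and 7, all on the log2(FPKM + 1) scale, with dotted lines at 1 and -1. The cloud leans upward against stage 1 (r of 0.306) and shows no lean against stage 7 (r of 0.00606).

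The stage 2 columns were also set against the other stages of their own genotype. Among the 338 higher genes, d1 lay above its own 3 other stages in 203 (60.1%) and WT lay below its own in 162 (47.9%), with 97 genes in both sets. Among the 216 lower genes, d1 lay below its other stages in 137 (63.4%) and WT above its own in 111 (51.4%), with 72 in both. Over all genes kept, d1 lay above its other stages in 18% and below them in 22.0%, and WT below in 20.1% and above in 18%. The choice of genes by their stage 2 difference favours such positions, so these shares are a description only. As whole columns, d1 at stage 2 correlated best with d1 at stage 1 (r of 0.983), and WT at stage 2 best with WT at stage 1 (0.983). The 2 stage 2 columns correlated at 0.978.

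Named genes were counted over 18 lists of pathways and cell types, of which 115 checked members were kept. Of these, 4 were higher (3.48%) and 7 were lower (6.09%) by at least 1 at stage 2, beside the 1.71% and 1.09% of all genes. The lists cover only a part of each pathway, and the members were written down with earlier results of these data known. The higher members include WRKY71, which was not in its list as first planned. The same holds for LFNR1 in the photosynthesis list and KRP3 in the cell division list, neither of which was past 1. Of all 167 checked members in the table, 142 were kept, and the others were below the filter. In whole meristems, a lower value can mean fewer cells of a type or less RNA per cell, and these cannot be told apart.

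**Figure D4:**
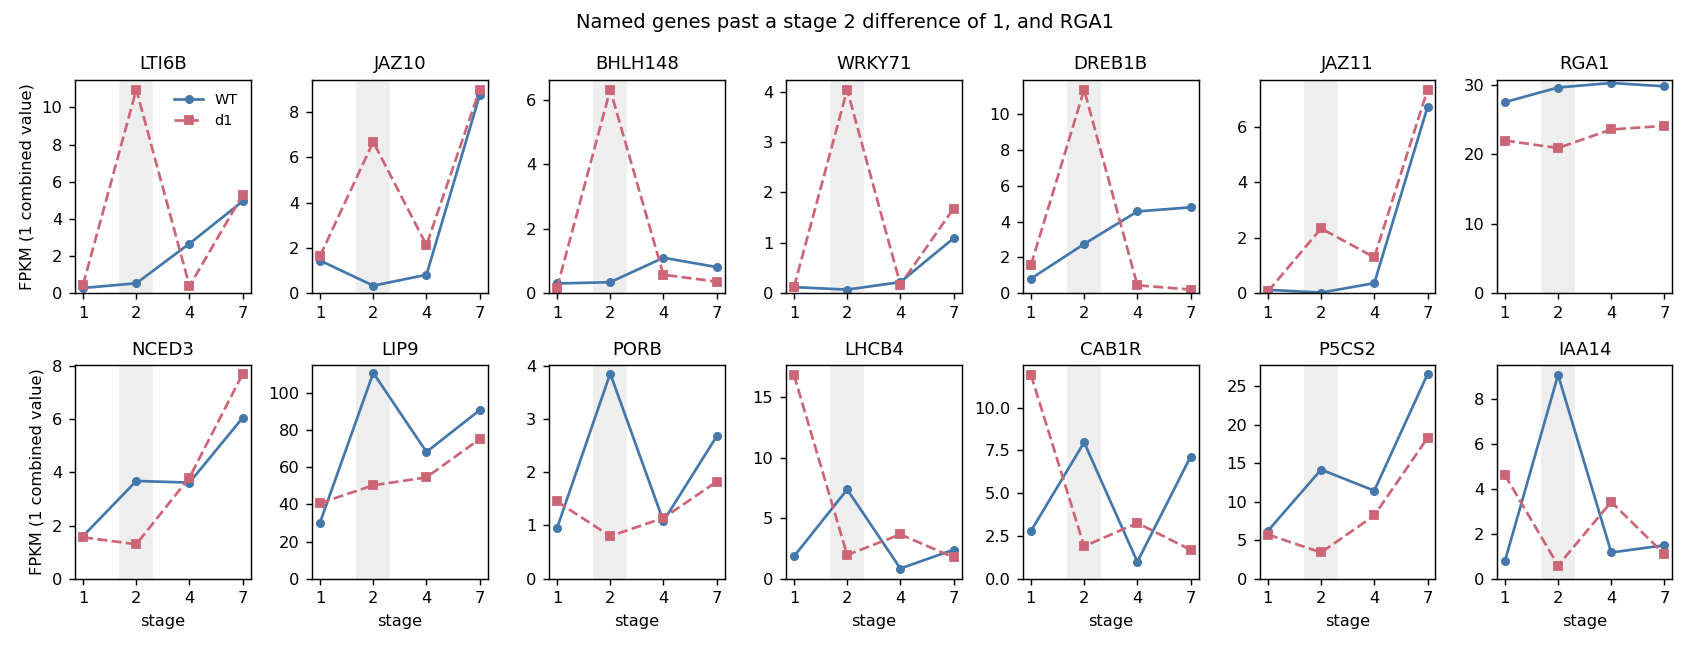
FPKM (y axis, from 0, 1 combined value per point) by stage (x axis) in WT (blue circles) and d1 (red squares) for the 13 named genes past a stage 2 difference of 1 and for RGA1, with stage 2 shaded. LTI6B, BHLH148, WRKY71 and DREB1B have their highest d1 value at stage 2, and IAA14, LIP9, PORB and LHCB4 their highest WT value there.

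Regulators of the jasmonate response were among the higher genes. JAZ proteins repress jasmonate signalling until the receptor COI1 removes them, and in plants many JAZ genes are themselves induced by the hormone and by wounding. JAZ10 (OS03G0181100) read 1.44, 0.33, 0.81 and 8.74 FPKM at stages 1, 2, 4 and 7 of WT and 1.64, 6.68, 2.12 and 8.99 FPKM in the same order of d1. Only at stage 2 did the genotypes lie far apart, with d1 20.4-fold above WT and a difference of 2.53, against 0.04 to 0.79 at the other stages. JAZ11 (OS03G0180900) read 0.12, 0.02, 0.36 and 6.70 FPKM across the WT stages and 0.06, 2.33, 1.29 and 7.32 FPKM across those of d1, a stage 2 difference of 1.71. For both genes, WT had its lowest value at stage 2 and its highest at stage 7.

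The rest of the jasmonate list did not share this size of difference. Of its 10 members kept, 2 were higher and 0 lower by at least 1, beside 1.71% and 1.09% of all genes, and the list's median was 0.07. JAZ13 had 0.20 FPKM in WT against 1.19 in d1, a difference of 0.86. The abundant JAZ1 had 279.48 and 305.04 FPKM, the receptor genes COI1A and COI1B had differences of 0.05 and 0.01, and JAZ7 had -0.29. JAZ10 and JAZ11 are close copies that lie side by side with JAZ9, so reads may have been shared among them, and JAZ9 was below the filter with 0.36 FPKM in d1 at stage 2.

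WRKY71 and DREB1B, which belong to the defence list and to the drought, cold and abscisic acid list, were past 1 with their highest d1 value at stage 2. The defence list as first planned did not name WRKY71. WRKY71 (OS02G0181300), a rice defence regulator induced by wounding and pathogens, had WT values of 0.12, 0.07, 0.22 and 1.09 FPKM and d1 values of 0.12, 4.04, 0.17 and 1.68 FPKM. Its d1 value at stage 2 was above all other 7 values, and the differences were 0.01, 2.24, -0.06 and 0.36. DREB1B (OS09G0522000), which switches on cold-response genes, read 0.81, 2.75, 4.57 and 4.80 FPKM across the WT stages and 1.57, 11.38, 0.44 and 0.20 FPKM across those of d1. WT values were higher at the later stages, whereas d1 was highest at stage 2 and lowest at stage 7, so that the difference was 1.72 at stage 2 and -2.28 at stage 7.

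BHLH148 and LTI6B were chosen after their values were seen. BHLH148 (OS03G0741100), a rice factor that binds JAZ1 and raises drought tolerance, had WT values of 0.30, 0.34, 1.1 and 0.81 FPKM and d1 values of 0.16, 6.32, 0.57 and 0.36 FPKM. Its d1 value at stage 2 was 18.4-fold that of WT, a difference of 2.45, and the other stages had differences of -0.17, -0.42 and -0.42. LTI6B (OS05G0138300), a small membrane protein gene induced by cold in rice, read 0.28, 0.53, 2.67 and 4.95 FPKM across the WT stages and 0.45, 10.96, 0.38 and 5.30 FPKM across those of d1. The stage 2 difference was 2.96, against 0.18, -1.41 and 0.08 at stages 1, 4 and 7. DREB2B, from the same added list, had 55.58 FPKM in WT against 59.47 in d1, a difference of 0.10.

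The 3 lower members of the drought, cold and abscisic acid list were P5CS2, LIP9 and NCED3, while 8 of its 14 members kept were above 0. P5CS2 (OS01G0848200), an enzyme of proline synthesis, had WT values of 6.23, 14.19, 11.45 and 26.58 FPKM and d1 values of 5.75, 3.42, 8.23 and 18.30 FPKM. The d1 value was below WT at each stage, by most at stage 2, where WT was 4.15-fold higher and the difference was -1.78. LIP9 (OS02G0669100), a dehydrin that protects cells that dry out or cool, read 30.29, 110.87, 68.30 and 90.77 FPKM across the WT stages and 40.73, 50.34, 54.59 and 75.25 FPKM across those of d1. Its WT value was highest at stage 2, and the difference there was -1.12, against 0.42 at stage 1. NCED3 (OS03G0645900), which makes the precursor of abscisic acid, had WT values of 1.61, 3.68, 3.62 and 6.06 FPKM and d1 values of 1.56, 1.3, 3.81 and 7.71 FPKM, a stage 2 difference of -1.03.

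Over the 14 members kept of this list, 1 was higher and 3 were lower, beside 1.71% and 1.09% of all genes, and the median was 0.09. Among the SAPK kinases, which pass on the abscisic acid signal, SAPK10 had 9.21 FPKM in WT against 4.77 in d1 at stage 2, and its difference of -0.82 was close to the -0.56, -0.80 and -0.67 of the other stages. SAPK9 had 48.01 and 32.11 FPKM, and SAPK8, the most abundant, had 88.93 and 99.96 FPKM. The factor BZIP23, an activator of abscisic acid targets, had 19.05 and 20.44 FPKM. Of 9 phosphatases of abscisic acid signalling, 0 were past 1, which with so few members is also what the share over all genes would give. At stage 2, 7 of them were below 0, while 51.9% of all genes kept were above 0. Their median was -0.23 at stage 2, and it was further below 0 at stage 1 (-0.53), with 0.09 and 0.5 at stages 4 and 7.

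The largest named difference among the lower genes was that of an auxin gene. IAA14 (OS03G0797800), a member of the Aux/IAA family of auxin-response repressors, read 0.78, 9.07, 1.17 and 1.49 FPKM across the WT stages and 4.62, 0.59, 3.42 and 1.09 FPKM across those of d1. WT was highest and d1 lowest at stage 2, so the difference was -2.67 there, against 1.66, 1.02 and -0.25 at stages 1, 4 and 7. Of the 12 auxin members kept, IAA14 was the only one past 1, beside 1.71% higher and 1.09% lower of all genes. The median was -0.14. IAA11, of the same family, had 1.62 FPKM in WT against 0.38 in d1, a difference of -0.93. The auxin exporter genes PIN1A, PIN1B and PIN1C had differences of -0.62, -0.37 and -0.14. PIN1A had WT values of 23.80, 19.69, 21.13 and 24.80 FPKM and d1 values of 23.21, 12.48, 16.87 and 19.78 FPKM. Both genotypes were lowest at stage 2.

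Photosynthesis genes separated stage 2 from stage 1 most of all lists. Of 47 identifiers written down for this list, 30 had expression values, and only 5 of these could be checked. The 5 checked members kept had a median difference of -1.43 at stage 2, against 1.64, 0.05 and -0.30 at stages 1, 4 and 7. At stage 2, 3 of them were lower and 0 higher by at least 1, beside 1.09% and 1.71% of all genes kept. CAB1R (OS09G0346500), a chlorophyll-binding antenna protein, read 2.79, 7.97, 0.99 and 7.13 FPKM across the WT stages and 11.92, 1.90, 3.26 and 1.69 FPKM across those of d1. LHCB4 (OS07G0558400), another antenna protein, had WT values of 1.85, 7.38, 0.85 and 2.40 FPKM and d1 values of 16.84, 1.97, 3.67 and 1.77 FPKM. For both genes d1 was above WT at stages 1 and 4 and below it at stages 2 and 7. The stage 2 differences were -1.63 and -1.50, and those at stage 7 were -1.59 and -0.3.

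PORB (OS10G0496900), an enzyme of chlorophyll synthesis, read 0.95, 3.85, 1.08 and 2.67 FPKM across the WT stages and 1.45, 0.80, 1.14 and 1.82 FPKM across those of d1, a stage 2 difference of -1.43. PSBQ, a subunit of the oxygen-evolving complex, had 10.02 and 5.53 FPKM at stage 2, and LFNR1, which passes electrons to NADP, had 2.10 and 2.89 FPKM. A further 20 identifiers written down for photosynthesis genes, whose names could not be looked up, had a median of -0.50 at stage 2 and 2.04 at stage 1. Of these 20, 6 were lower and 1 was higher by at least 1 at stage 2, beside 1.09% and 1.71% of all genes kept. The higher one had 0.52 FPKM in WT against 19.1 in d1. With them the list's median was -0.76, and among the 2 members whose mean reached 5 FPKM, PSBQ and LFNR1, it was -0.21. LFNR1 was not in the list as first planned. This list is also the marker list for leaf tissue, and the checked members summed to 9.42, 31.3, 23.3 and 36.7 FPKM over the WT stages and 43.0, 13.1, 26.4 and 29.1 FPKM over those of d1 at stages 1, 2, 4 and 7, with none at 0 in a stage 2 column. The part of leaf tissue in these differences was not tested.

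**Figure D5:**
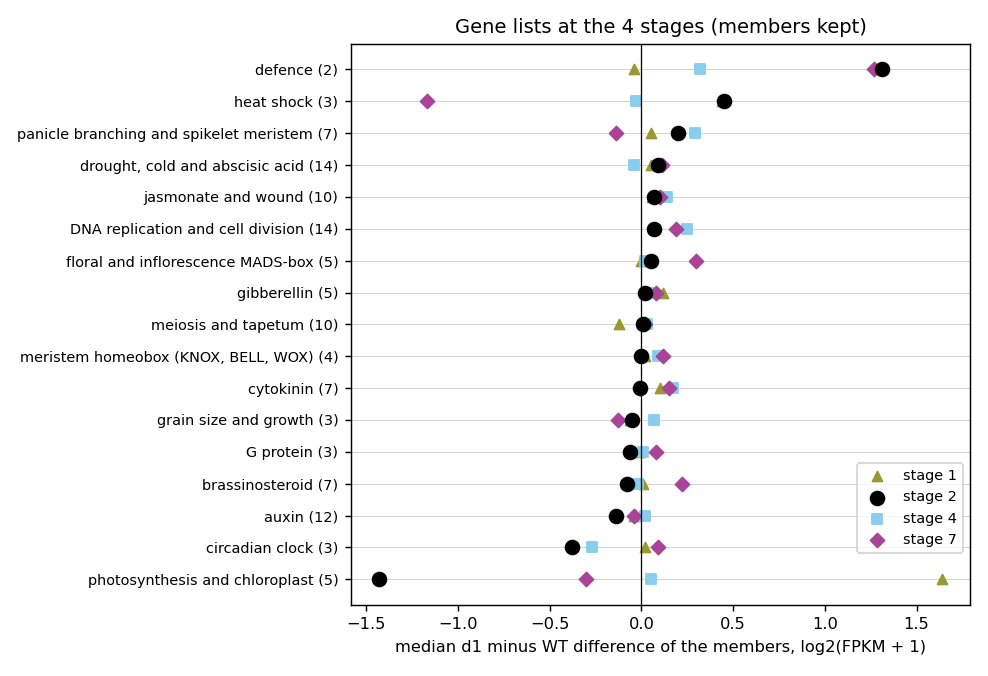
Median d1 minus WT difference of the members kept (x axis, log2(FPKM + 1) scale) for each list with at least 2 such members (y axis, number in brackets), at stage 1 (triangles), 2 (black circles), 4 (squares) and 7 (diamonds). Photosynthesis lies at -1.43 at stage 2 and 1.64 at stage 1, while most other lists lie near 0 at stage 2.

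Of the 7 panicle branching members kept, 6 were above 0 at stage 2, beside 51.9% of all genes, and the median was 0.20. The list's median was larger at stage 4 (0.29), and it was 0.05 at stage 1 and -0.14 at stage 7. LAX1, which starts axillary meristems, had WT values of 126.75, 113.63, 131.57 and 55.72 FPKM and d1 values of 190.43, 194.28, 155.07 and 50.47 FPKM. Its stage 2 difference of 0.77 was the largest of the list, and stage 1 had 0.58. NL1, which holds back the leaf below a branch, had 238.86 and 315.21 FPKM at stage 2 (0.40), TAW1, which delays the change to spikelets, had 34.38 and 44.11 FPKM (0.35), and SPL14, a regulator of branch number, had 1428.14 and 1558.30 FPKM (0.13). None of the 7 was past 1, which with so few members is also what the share over all genes would give. With quantile normalization, 5 were above 0.

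Genes of meristem identity, the cell cycle and flowering also had 0 members past 1, beside 1.71% higher and 1.09% lower of all genes. With so few members, 0 is also what these shares would give. The 4 homeobox members had stage 2 differences from -0.16 to 0.33. MADS14, which promotes the change to flowering, had 21.29 FPKM in WT against 27.76 in d1. The 14 DNA replication and cell division members had a median of 0.07 and 0 past 1. PCNA, the sliding clamp of DNA replication, had 246.34 and 268.61 FPKM, and the kinase gene CDKA-1 had 108.62 and 96.96 FPKM. The 10 meiosis and tapetum members lay between -0.30 and 0.19.

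The brassinosteroid, gibberellin and cytokinin lists had 0 members past 1, which at their size is also what the share over all genes would give. The brassinosteroid receptor gene BRI1 had 132.30 and 131.22 FPKM in WT and d1 at stage 2, and BZR1, a factor of the same pathway, had 203.86 and 223.29 FPKM. SLR1, the DELLA repressor of gibberellin responses, had 143.22 and 144.87 FPKM. Among 7 cytokinin members, RR1, a response regulator, had 22.21 and 16.98 FPKM, a difference of -0.37 beside 0.08, 0.09 and 0.18 at the other stages. RGB1, the G protein beta subunit, had 51.02 and 49.06 FPKM, and GRF4, a growth regulator of grain size, had 178.62 and 144.01 FPKM.

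The clock, heat shock and defence lists had few members. GI had 272.86 FPKM in WT against 198.19 in d1 at stage 2 (-0.46), LHY had 64.22 and 49.00 FPKM (-0.38) and ELF3-1 had 12.68 and 11.72 FPKM (-0.11). LHY differed more at the later stages, by -0.94 and -2.16. The sources used here do not say at what time of day meristems were taken. The 3 heat shock members were above 0 at stage 2, with HSP26.2, a small heat shock protein, at 22.86 and 39.77 FPKM (0.77). This gene had a similar 0.67 at stage 1, with -0.06 and -1.48 at stages 4 and 7. PR10A, a pathogenesis-related protein, had 0.29 and 0.70 FPKM at stage 2, and 29.44 and 137.91 FPKM at stage 7. EHD3, a promoter of flowering, had 21.99 and 22.23 FPKM at stage 2.

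The largest differences of all belonged to genes without a name in the tables used here. OS04G0611266 read 9.60, 0, 60.32 and 57.27 FPKM across the WT stages and 46.67, 107.49, 23.22 and 6.83 FPKM across those of d1. It was listed at 0 in WT at stage 2 alone, and its difference of 6.76 was the largest at this stage. OS05G0230501 was at 0 throughout the 4 columns of WT and had 54.62, 45, 33.38 and 47.57 FPKM in d1, so its difference of 5.52 at stage 2 was shared by all stages. OS06G0621550 had 7.15, 24.48, 7.34 and 17.42 FPKM in WT and was listed at 0 in d1 at stages 1, 2 and 7, with 7.6 FPKM at stage 4. OS11G0150400 had WT values of 23.51, 286.46, 32.17 and 48.43 FPKM and d1 values of 45.41, 21.63, 68.50 and 44.89 FPKM. Its WT value at stage 2 stood far above the other 7, which gave a difference of -3.67 (WT 13.2-fold higher), against 0.92, 1.07 and -0.11 at the other stages.

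A last comparison used genes that changed along the stages in both genotypes, chosen from the stage 1 and stage 7 columns alone. The 402 genes lower at stage 7 than at stage 1 by at least 1 in WT and in d1 had a median stage 2 difference of 0.27, and 327 of them (81.3%) were above 0, against 51.9% of all genes kept. Of these 402, 4.48% were higher and 0.498% lower by at least 1 at stage 2, beside 1.71% and 1.09% of all genes kept. The 965 genes that were higher at stage 7 than at stage 1 had a median of -0.02, with 48.0% above 0, and 4.46% were higher and 5.39% lower. At stage 4, the median difference was 0.12 for the first set and 0.16 for the second. There, 65.9% and 65.6% of the sets were above 0, against 50.5% of all genes kept. These sets share library columns among their genes and are given as a description.

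The genes past the threshold were spread over all 12 chromosomes. The share of higher genes ran from 0.963% on chromosome 12 to 2.23% on chromosome 10. Chromosome 5, which carries RGA1, had 34 higher (2.07%) and 21 lower (1.28%) of 1643 genes.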

How the data were processed

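RNA of 16 libraries was sequenced by the authors as single reads of 150 bases, per the labels. Per the submitters' processing notes, FastQC, Trimmomatic, TopHat2, Cufflinks and Cuffdiff were used with build IRGSP-1.0. The deposited values are FPKM, a unit inferred from these tools and the values, with the 2 libraries of a group already combined by the authors. The sources used here do not give the scaling between columns, and the depth behind a value is unknown. All 8 columns were used.

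Values were analysed as log2(FPKM + 1) for genes that reached 1 FPKM in 2 or more columns (R 4.3.3). Limma 3.58.1 (eBayes with trend, Benjamini-Hochberg over 19757 genes) fitted stage, genotype and genotype at stage 2, with 2 residual degrees of freedom. It was tested on simulated data.

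Of 617 identifiers written down for named genes, 331 were in the table, and 167 of these had their name in the RefSeq table within 500 kb of the place interpolated from their neighbours (median distance 8 kb over the 414 checked identifiers). Members and lists were chosen with earlier results of these data known. Named were list members past 1 at stage 2 or, in lists with under 2 such, the 2 most abundant, RGA1 and at most 2 unnamed identifiers per direction; other members are given after their values were seen. Product families were not run, since no table pairs products with the identifiers.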

Additional observations from a re-analysis of the deposited data

Results flagged for a closer look

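These results had a d1 minus WT difference of at least 1 at stage 2 and of at least 1 in the opposite direction at another stage. With 1 combined value per group, the difference between stages was not tested for any of them alone, and the fit over all genes called 0 genes. IAA14 had -2.67 at stage 2, 1.66 at stage 1 and 1.02 at stage 4. CAB1R had -1.63 at stage 2, 1.77 at stage 1 and 1.1 at stage 4, and LHCB4 had -1.50, 2.65 and 1.34 at these stages. At stage 7, CAB1R had -1.59, so its stage 2 value does not stand apart from all other stages, and LHCB4 had -0.3. The photosynthesis list had a median of -1.43 at stage 2 and 1.64 at stage 1. DREB1B had 1.72 at stage 2, -1.95 at stage 4 and -2.28 at stage 7. LTI6B had 2.96 at stage 2 and -1.41 at stage 4.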

How the results depend on the processing

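No paired analysis was possible because the deposited columns combine the 2 libraries of each group, and for the same reason no library could be left out. The counts of 338 higher and 216 lower genes became 122 and 93 for genes whose mean reached 5 FPKM, 730 and 471 with a pseudocount of 0.1, and 122 and 79 at a difference of at least 1.5. Without identifiers not ending in 00, an alternative chosen after seeing the data, 197 were higher. The photosynthesis median of -1.43 became -0.21 for members whose mean reached 5 FPKM and -0.76 with the unchecked identifiers, also added after seeing the data. The correlation with stage 4 became 0.286 with that filter and 0.107 with a pseudocount of 0.1. The correlation with stage 7 stayed near 0, at 0.048 with that filter, -0.003 and 0.003 with pseudocounts of 0.1 and 0.5, 0.004 with median scaling and 0.013 with quantile normalization. The limma count of 0 became 24 higher and 2 lower with no filter, and 1 lower without stage 7; the cause was not tested. Of 312 values of the 54 named genes under the alternatives, 305 kept their direction and their side of 1. PR10A passed 1 with a pseudocount of 0.1 (1.02). With median scaling or quantile normalization, 6 small differences of SPL14, SLR1, EHD3, MSP1 and NRT2.3 changed sign. Genes that a filter removed are not among these values. Of the named genes past 1, only P5CS2 and LIP9 had a mean of at least 5 FPKM. The others past 1 therefore have no value under that filter. Quantile normalization moved the median of all genes by -0.028. What limits these results is that each value is a single combined one, given without its number of reads. How many reads lie behind the differences of low genes cannot be counted here.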

Other observations

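Some genes outside the lists' main results had stage 2 values of note to their pathway. GLN1-2, a glutamine synthetase of nitrogen use, had 0.49 FPKM in WT against 1.82 in d1 at stage 2, a difference of 0.92 beside 0.10, 0.20 and 0.26 at stages 1, 4 and 7. ACO1, which makes ethylene in its last step, read 12.81, 6.49, 9.97 and 3.97 FPKM across the WT stages and 20.74, 11.56, 13.02 and 4.92 FPKM across those of d1, with d1 above WT at each stage. WRKY51, a WRKY factor of rice, had 46.06 FPKM in WT against 72.19 in d1 at stage 2 (0.64), and 0.38 to 0.43 at the other stages. HSFC2B, of the heat shock factor family, had 8.43 and 4.93 FPKM at stage 2 (-0.67), and -0.97, -0.45 and 0.44 at stages 1, 4 and 7. These genes come from lists added after the table was seen, and they were picked for their values.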
